A study of Mus musculus with 15 samples.

Results

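Hox genes encode homeodomain transcription factors that stand in a row in each of 4 chromosomal clusters. They were taken here as every protein-coding row of the deposited gene table whose symbol is Hoxa, Hoxb, Hoxc or Hoxd followed by a number, with no filter on expression. That gave 40 of 54532 rows and 39 different symbols, since Hoxd4 is listed under 2 Ensembl identifiers. Hoxa holds 11 rows, Hoxb 10, Hoxc 9 and Hoxd 10. On build mm10 they lie on chromosome 6 from 52155590 to 52260880 (Hoxa), on chromosome 11 from 96194316 to 96368256 (Hoxb), on chromosome 15 from 102921103 to 103036852 (Hoxc) and on chromosome 2 from 74668310 to 74765142 (Hoxd).

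In the embryo, Hox genes are switched on in the order in which they stand, so that genes at the anterior end of a cluster act towards the head and genes at the posterior end towards the tail. Outside the region where a gene is needed, Polycomb repressive complex 2 (PRC2) keeps it silent by placing methyl groups on lysine 27 of histone H3 through its catalytic subunit Ezh2 or Ezh1, and trithorax proteins and H3K27 demethylases oppose it. Anterior Hox genes are known for their part in the second heart field, where retinoic acid controls them, and fibroblasts of many organs keep a Hox pattern of their position. Hox genes are textbook Polycomb targets, but no histone mark was measured in the data used here.

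The study sequenced polyadenylated RNA of the left ventricle from female C57BL/6JRj mice aged 12 to 18 weeks, taken on day 8 after surgery. The Sham group (5 libraries) had surgery without infarction and the MI group (5 libraries) had a myocardial infarction by permanent ligation of a coronary artery; mice of these groups were injected with 20% Captisol, the vehicle. The GSK group (5 libraries) was given GSK-343, an inhibitor of the Ezh2 enzyme, at 20 mg/kg daily into the peritoneum from 6 h after surgery to day 7; per the labels' protocols these hearts were infarcted as well, although the sample titles give the compound only. No group had the compound without infarction. Each library stands for 1 animal, except Sham replicates 1 and 2, which each mix RNA of 2 animals.

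Each library held 21.5 to 26.8 M fragments within genes (M, mega). FPKM values divide the fragments of a gene by its length in kilobases and by a total of the library, so that a lone fragment was worth 0.0357 to 0.0478 FPKM per 1 kb of gene. Cardiomyocyte markers summed to 4321 to 5760 FPKM in Sham, 2285 to 4894 in MI and 3428 to 4767 in GSK, which shows heart muscle as labelled. The 4 markers of atrial cardiomyocytes summed to between 106 FPKM in Sham replicate 5 and 2108 in GSK replicate 1. The mitochondrial share of the FPKM was 41.2% to 42.2% in Sham and 23.2% to 32.7% in the infarcted hearts, except for 40.6% in MI replicate 4, 46.4% in GSK replicate 3 and 48.7% in GSK replicate 4. Without these 3 libraries, 0 Hox genes passed the tests described below. In bulk tissue, fewer cells of a type and less RNA per cell cannot be told apart.

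The Hox rows were silent or very low in the adult left ventricle. A row was called detected when at least 3 fragments were counted in at least 5 of the 15 libraries, expressed when it reached 1 FPKM in at least 5 libraries, and trace when it had fragments but fewer than that. Of the 40 rows, 11 were listed at 0 in all 15 libraries, 16 were trace, 13 were detected and 0 were expressed. Among all 22046 protein-coding genes, 18.5% were listed at 0, 69.4% were detected or expressed and 51.0% were expressed. For the Hox rows the first of these shares was 27.5% and the second 32.5%. All Hox rows together held 2768 of 355 M fragments, or 7.80 per 1 M.

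**Figure D1:**
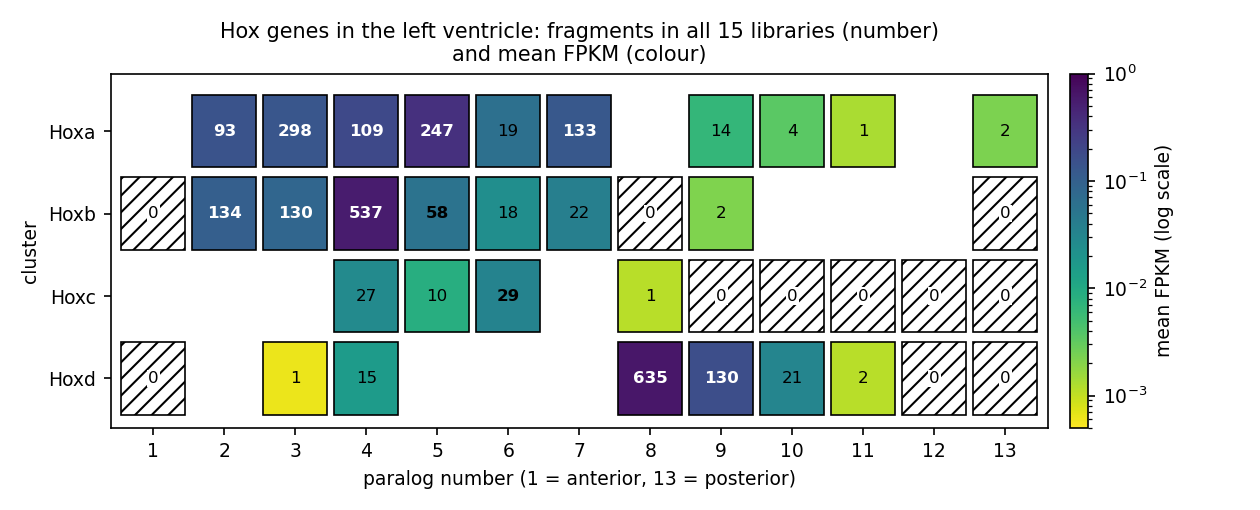
Hox genes of the 4 clusters (rows) by paralog number (columns, 1 anterior to 13 posterior), with the number of fragments in all 15 libraries printed in each cell and the mean FPKM as colour on a log scale. Bold numbers are detected genes, hatched cells are listed at 0 in every library, blank positions hold no gene shown, and the Hoxd4 cell sums its 2 rows. Most fragments of Hoxa and Hoxb lie in the left and middle columns, although Hoxb1 and Hoxb8 are at 0. Of the 901 Hoxb fragments 537 are from Hoxb4, and 635 of the 804 Hoxd fragments are from Hoxd8.

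Position in the cluster went with the level. Of 13 anterior rows (paralogs 1 to 4), 7 were detected, of 11 central rows (paralogs 5 to 8) 5, and of 16 posterior rows (paralogs 9 to 13) 1, which was Hoxd9. Anterior rows held 1420 Hox fragments (51.3%), central rows 1172 (42.3%) and posterior rows 176 (6.36%), of which 130 were from Hoxd9. The clusters also differed among themselves. Hoxa had 996 fragments (36.0%) and 6 detected rows, and none of its rows was listed at 0. Hoxb had 901 fragments (32.6%) with 4 rows detected and 3 listed at 0. Hoxd had 804 fragments (29.0%), with Hoxd8 and Hoxd9 detected and the other 8 rows trace or at 0, its anterior rows included. Hoxc had 67 fragments (2.42%), and its only detected gene was Hoxc6 with 29 fragments. These are counts over genes of shared clusters, and no test was made of them.

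The 11 genes listed at 0 were Hoxb1, Hoxb8, Hoxb13, Hoxc9, Hoxc10, Hoxc11, Hoxc12, Hoxc13, Hoxd1, Hoxd12 and Hoxd13. Over all 15 libraries, 3 fragments would equal a mean of 0.00319 FPKM for Hoxb8, the lowest of these limits, and 0.00815 FPKM for Hoxc12, the highest. Such limits cover counting error only. Hoxb1, an anterior gene of hindbrain patterning, was among the silent genes although its neighbour Hoxb2 was detected with 134 fragments. The trace genes with the most fragments were Hoxc4 with 27, Hoxb7 with 22 and Hoxd10 with 21, and Hoxa11, Hoxc8 and Hoxd3 had 1 fragment each. By mean FPKM the highest trace gene was the shorter Hoxa6, at 0.0617 from 19 fragments.

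Some Hox rows share exons with other genes, and the sources used here do not say how the counting treated shared fragments or whether it used strand. By GENCODE vM21, which has 39 of the 40 rows, 23 share no exonic base with another gene, and Hoxd8, Hoxb4, Hoxa5 and Hoxd9 are among them. Of the rest, 3 share at least 50% of their exonic bases, namely Hoxd3 (62.8%), Hoxb3 (52.9%) and Hoxd4 under the identifier ENSMUSG00000101174 (52.3%). The low values of Hoxd3 and Hoxd4, which share exons with each other on the same strand, are uncertain for that reason.

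Polycomb targets of vertebrates are known for promoters rich in CG dinucleotides. RefSeq promoters on GRCm38.p6, 250 bases before to 50 after a gene's start, were matched for 22 Hox symbols with 24 promoters. At least 10 CG dinucleotides were found in 17 of them (70.8%), against 43.5% of all 32851 promoters of that length; CG reads the same on both strands. The median was 14.5 per Hox promoter and 7 per promoter overall. At least 10 were found in 4 of 7 promoters of detected genes (57.1%), 8 of 12 of trace genes (66.7%) and 5 of 5 of genes listed at 0. The medians had another order, at 14, 17.5 and 13, and with so few promoters these are descriptions only. The 3 Hox genes of highest mean FPKM and 2 genes listed at 0 are shown, each 5′ to 3′ on the strand of the gene with CG in capitals. Hoxd8 lies at chr2:74704365-74704664 (plus strand), Hoxb4 at chr11:96318017-96318316 (plus), Hoxa5 at chr6:52204538-52204837 (minus), Hoxb1 at chr11:96365508-96365807 (plus) and Hoxd13 at chr2:74667975-74668274 (plus).
Hoxd8: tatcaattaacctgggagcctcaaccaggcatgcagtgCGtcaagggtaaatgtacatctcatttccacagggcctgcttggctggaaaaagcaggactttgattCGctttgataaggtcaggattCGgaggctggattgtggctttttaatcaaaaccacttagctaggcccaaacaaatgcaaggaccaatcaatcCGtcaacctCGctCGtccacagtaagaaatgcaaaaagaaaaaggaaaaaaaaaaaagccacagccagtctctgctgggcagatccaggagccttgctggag
Hoxb4: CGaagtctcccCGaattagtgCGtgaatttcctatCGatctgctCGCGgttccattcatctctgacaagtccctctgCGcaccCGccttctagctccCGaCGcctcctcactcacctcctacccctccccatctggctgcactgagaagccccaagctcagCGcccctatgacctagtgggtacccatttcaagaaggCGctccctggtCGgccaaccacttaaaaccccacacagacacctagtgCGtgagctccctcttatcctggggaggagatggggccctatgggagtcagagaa
Hoxa5: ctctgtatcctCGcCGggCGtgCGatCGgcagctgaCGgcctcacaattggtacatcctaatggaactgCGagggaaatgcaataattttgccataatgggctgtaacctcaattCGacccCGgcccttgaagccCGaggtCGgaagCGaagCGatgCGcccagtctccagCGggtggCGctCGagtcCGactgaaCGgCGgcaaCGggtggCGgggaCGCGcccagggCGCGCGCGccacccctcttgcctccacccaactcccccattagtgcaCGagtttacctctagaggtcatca
Hoxb1: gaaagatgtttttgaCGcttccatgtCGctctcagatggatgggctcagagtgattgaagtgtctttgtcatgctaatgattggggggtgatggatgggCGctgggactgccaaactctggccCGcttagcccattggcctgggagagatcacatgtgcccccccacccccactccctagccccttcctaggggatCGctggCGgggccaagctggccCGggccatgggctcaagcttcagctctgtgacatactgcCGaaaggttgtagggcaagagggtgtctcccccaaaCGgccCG
Hoxd13: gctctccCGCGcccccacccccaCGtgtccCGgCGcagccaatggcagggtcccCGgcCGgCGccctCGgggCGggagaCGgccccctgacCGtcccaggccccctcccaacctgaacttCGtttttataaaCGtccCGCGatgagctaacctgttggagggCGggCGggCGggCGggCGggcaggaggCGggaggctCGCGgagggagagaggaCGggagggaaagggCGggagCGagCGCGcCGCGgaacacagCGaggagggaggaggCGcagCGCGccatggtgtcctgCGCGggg
Hoxd8 had the highest mean level of all Hox genes with 6 CG dinucleotides in this window, and Hoxd13, at 0 in every library, had 37. Hoxb4 had 14, Hoxa5 29 and Hoxb1 10.

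Hoxd8, a central gene of the Hoxd cluster (ENSMUSG00000027102, chromosome 2, 74704615 to 74707933), had a mean of 0.628 FPKM over the 15 libraries from 635 fragments. Its FPKM in Sham replicates 1 to 5 were 0.673, 0.469, 0.549, 0.241 and 0.558. In MI they were 0.638, 1.00, 1.54, 0.645 and 0.339, and in GSK 0.425, 0.336, 0.530, 0.696 and 0.775. MI replicates 2 and 3 stood above all other libraries, and MI replicate 5 lay among the lowest, so that the groups overlapped. The group means (± SD, n = 5) were 0.498 ± 0.161 for Sham, 0.833 ± 0.460 for MI and 0.553 ± 0.183 for GSK.

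Hoxb4, an anterior gene of Hoxb that is also known for promoting self-renewal of haematopoietic stem cells (ENSMUSG00000038692, chromosome 11, 96318267 to 96321638), had a mean of 0.559 FPKM from 537 fragments. Its Sham FPKM were 0.246, 0.172, 0.658, 0.515 and 0.452. The MI libraries had 1.15, 0.960, 1.24, 0.577 and 0.272 FPKM, and the GSK libraries 0.583, 0.147, 0.195, 0.308 and 0.921. MI replicates 1, 2 and 3 were the highest of all 15, followed by GSK replicate 5, and the lowest MI library lay inside the Sham range. Means were 0.409 ± 0.199 in Sham, 0.839 ± 0.405 in MI and 0.431 ± 0.322 in GSK.

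Hoxa5, a central gene with a known role in lung and stomach development (ENSMUSG00000038253, chromosome 6, 52201754 to 52204587), came next with a mean of 0.348 FPKM from 247 fragments. The Sham libraries lay close together at 0.0960, 0.214, 0.195, 0.226 and 0.247 FPKM. The MI libraries had 0.913, 0.457, 1.11, 0.458 and 0.0826, and the GSK libraries 0.292, 0.0224, 0.145, 0.223 and 0.546. In MI, 4 of 5 libraries were above every Sham library, and MI replicate 5 was below all of them. These 3 genes made up 51.3% of all Hox fragments. Their order by level, Hoxd8 before Hoxb4 before Hoxa5, is within the spread of the libraries for the first pair.

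**Figure D2:**
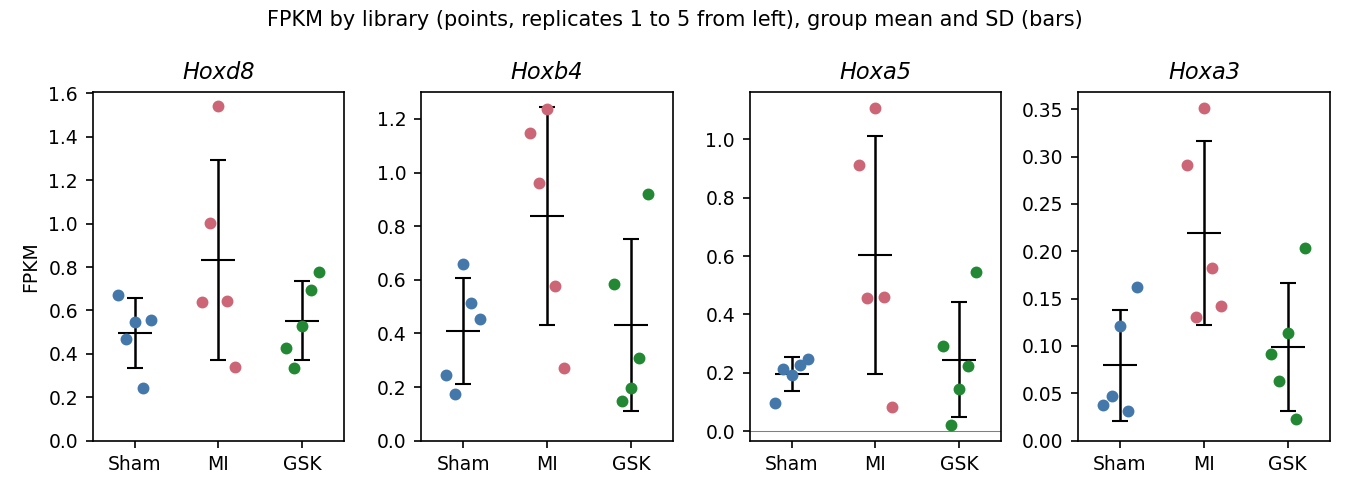
FPKM of Hoxd8, Hoxb4, Hoxa5 and Hoxa3 (panels, linear axes of different height) in each library of the Sham, MI and GSK groups, as points with replicates 1 to 5 from left to right, and the group mean with its SD as bars. In each panel the highest point is MI replicate 3, and the range of the MI libraries overlaps with that of Sham and of GSK.

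A group difference was tested with limma on log2(FPKM + 0.1) for each gene that reached 0.1 FPKM in 5 libraries or more, and p-values were adjusted over all 19222 genes tested. Of the Hox rows, 10 could be tested, among them Hoxa2, Hoxa3, Hoxa4, Hoxa5, Hoxa7, Hoxb2, Hoxb4, Hoxd8 and Hoxd9. A gene that is high in 1 group only can pass such a filter through that group, so counts over these 10 do not speak for all Hox rows. Hoxb3 (130 fragments), Hoxb5 (58) and Hoxc6 (29) were detected but did not pass.

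The comparison of MI with Sham asks whether infarction changed Hox levels. A single anterior gene, Hoxa3, rose, and the other 9 tested genes did not pass the test. By the limma adjusted p, 1 of 10 was called (10%), while 34% of all tested genes were called, 17.6% higher and 16.4% lower. All 10 log2 differences were above 0, against 49.3% of all genes tested, with a median of 0.69 for the Hox genes and -0.01 for all genes. Hox genes whose libraries did not overlap between MI and Sham numbered 0 of 10, against 23.8% of all tested genes.

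Hoxa3, which patterns pharyngeal organs such as thymus and parathyroid (ENSMUSG00000079560, chromosome 6, 52169062 to 52213336), had Sham FPKM of 0.0375, 0.0468, 0.121, 0.0314 and 0.162. Its MI values were 0.291, 0.131, 0.352, 0.183 and 0.142. MI replicates 1, 3 and 4 were above every Sham library, and the other MI libraries were below Sham replicate 5. Its mean was 0.0798 ± 0.0586 FPKM in Sham and 0.220 ± 0.0973 in MI (SD, n = 5 each), a ratio of 2.75. The log2 difference was 0.84 ± 0.30 (SE; limma adjusted p = 0.0405) on the log2(FPKM + 0.1) scale, 0.17 with a pseudocount of 1, and 1.60 by voom on the recovered fragments. The call was lost in 11 of 28 alternative analyses, with an adjusted p of up to 0.248, and it was lost without Sham replicate 1, 2 or 4 or MI replicate 1, 3 or 4. Hoxa3 shares 27.1% of its exonic bases with other genes.

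The 9 tested genes that were not called had wide intervals. For Hoxa5 the log2 difference was 1.02 ± 0.48 (SE; limma adjusted p = 0.115), and its mean FPKM was 0.196 ± 0.0588 in Sham and 0.603 ± 0.407 in MI. Hoxa2, which patterns the branchial arches, had 0.0823 ± 0.0509 and 0.232 ± 0.117 FPKM (limma adjusted p = 0.0658). The differences of Hoxb4 and Hoxd8 were 0.84 ± 0.44 (adjusted p = 0.151) and 0.55 ± 0.32 (adjusted p = 0.202) in the limma fit. Hoxb2, Hoxa4 and Hoxa7 had log2 differences of 0.49, 0.50 and 0.29. Leaving out 1 library moved several of these by over 1.5 times. Hoxa4 was at 0.23 without Sham replicate 1, 0.32 without MI replicate 1 and 0.74 at most, and Hoxa7 at 0.12 without Sham replicate 1, 0.16 without MI replicate 3, 0.48 without MI replicate 5 and 0.57 without Sham replicate 5. Hoxd8 was at 0.32 without MI replicate 3 and 0.36 without Sham replicate 4. Hoxd9, the posterior gene of the 10, had 0.171 ± 0.113 FPKM in Sham and 0.182 ± 0.0990 in MI, a difference of 0.09 with a 95% interval of -0.57 to 0.76.

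The MI libraries differed widely. Summed over all 40 rows, Hox FPKM were 2.16 ± 0.644 in Sham (626 fragments), 4.14 ± 2.07 in MI (1407 fragments) and 2.35 ± 1.23 in GSK (735 fragments; SD, n = 5 each). The MI libraries held both the highest sums (6.94 in replicate 3 and 5.14 in replicate 1) and nearly the lowest (1.39 in replicate 5, 14th of 15). Without MI replicate 5, the limma test called 5 of 10 genes higher in MI, among them Hoxa2, Hoxa3, Hoxa5 and Hoxb4. With MI replicates 1 and 3 left out, an alternative chosen after seeing the data, it called 0 of 9. Hoxc contributed 0.0709 ± 0.0511 FPKM in Sham and 0.0780 ± 0.0951 in MI.

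**Figure D3:**
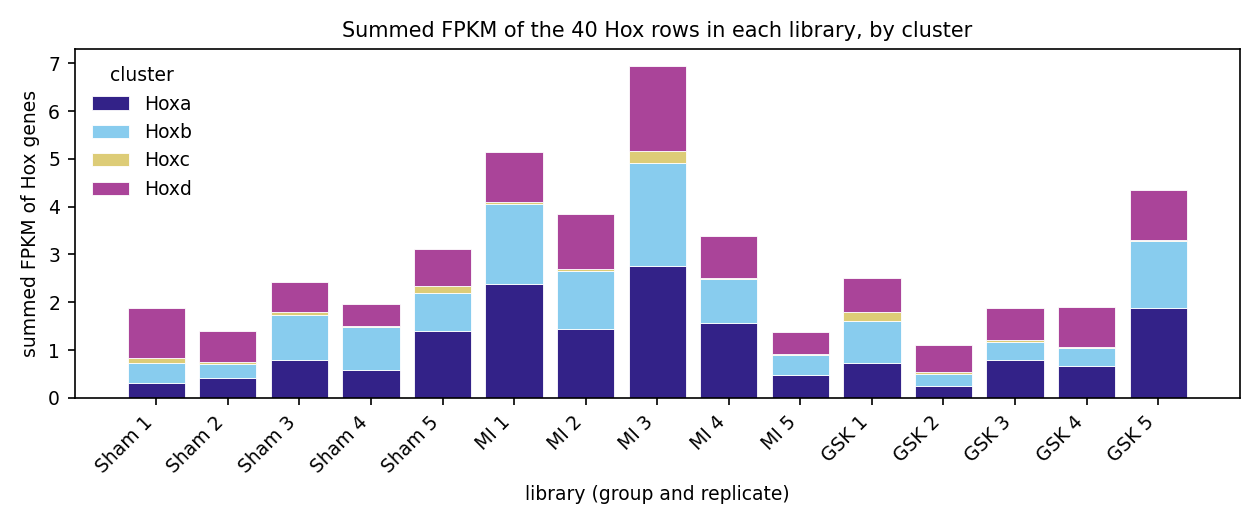
Summed FPKM of the 40 Hox rows in each of the 15 libraries (bars from 0), with the part of each cluster in colour. MI replicates 3 and 1 are the tallest at 6.94 and 5.14 and GSK replicate 5 is next at 4.35, while MI replicate 5 and GSK replicate 2 are the lowest at 1.39 and 1.10.

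The comparison of GSK with MI asks whether inhibiting Ezh2 raised the Hox genes in infarcted hearts, as loss of H3K27 methylation could at Polycomb targets. No Hox gene was called in either direction. The limma test called 0 of 10 Hox genes, and 0% of all 19222 genes tested, while at an unadjusted p under 0.05 there were 2 Hox genes and 3353 genes overall (17.4%). Without MI replicate 1, 139 genes were called higher and 107 lower in GSK, and still 0 Hox genes. All 10 log2 differences were below 0, while 49.6% of all tested genes were above it. The Hox values ran from -0.96 for Hoxa5 to -0.10 for Hoxd9, with a median of -0.68 against -0.00 for all genes. The lowest adjusted p was 0.215, for Hoxb2, whose mean was 0.159 ± 0.0436 FPKM in MI and 0.0639 ± 0.0458 in GSK. This comparison shares the MI libraries with the one above, so its differences are not a separate observation of the MI level.

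Each interval bounds a rise of 1 tested gene on the scale of FPKM + 0.1, which understates changes of low genes. Hox rows that were not tested have no such bound. Over the 10 genes the upper end of the 95% interval of the log2 difference lay between -0.11 and 0.80, the highest being that of Hoxa4, which equals 1.75-fold on the scale of FPKM + 0.1. Hoxa4 had 0.217 ± 0.131 FPKM in MI and 0.212 ± 0.257 in GSK, with GSK replicate 5 at 0.643 and the other GSK libraries between 0.0263 and 0.257. In Hoxa3 the GSK libraries had 0.0910, 0.0628, 0.113, 0.0232 and 0.203 FPKM, and in Hoxa5 their mean was 0.246 ± 0.195. The ratio of the GSK mean to the MI mean was 0.449 for Hoxa3, 0.407 for Hoxa5, 0.514 for Hoxb4 and 0.663 for Hoxd8. These differences did not pass the test (limma adjusted p from 0.215 to 0.899 over the 10 genes). The smallest difference was that of Hoxd9, with 0.150 ± 0.0201 FPKM in GSK.

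**Figure D4:**
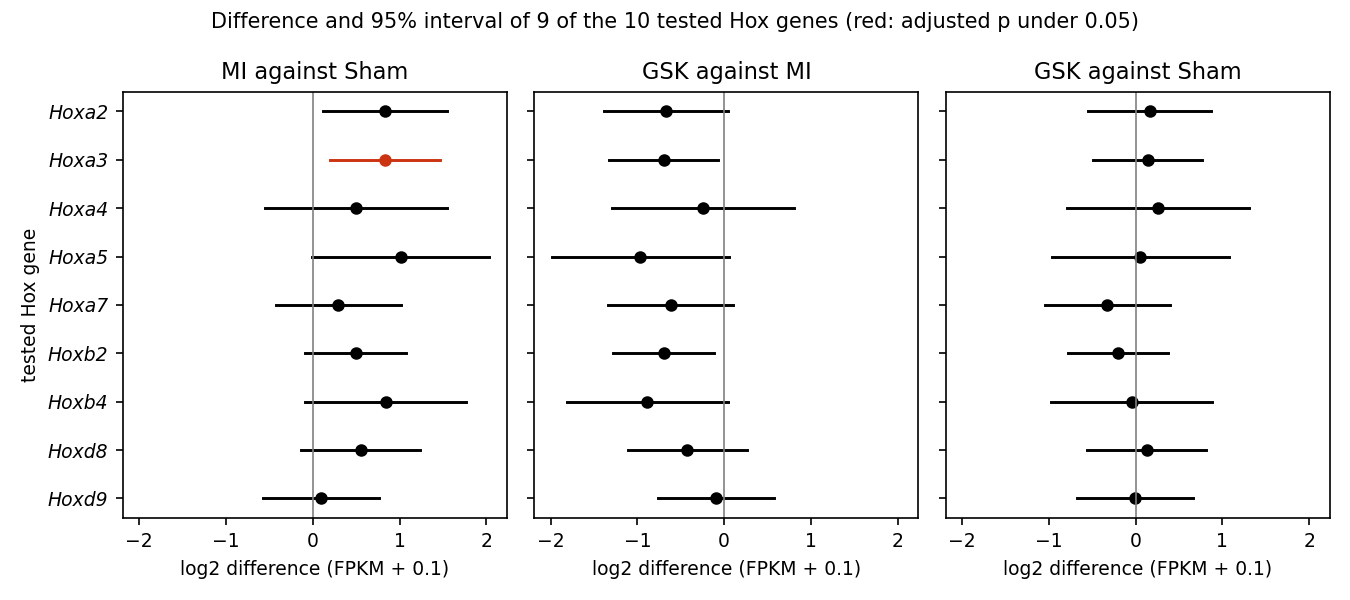
Difference of group means on the log2(FPKM + 0.1) scale (points) with its 95% interval (lines) for 9 of the 10 tested Hox genes in the 3 comparisons, red where the adjusted p is under 0.05. In MI against Sham all points lie right of 0 and Hoxa3 alone is red, in GSK against MI all lie left of 0, and in GSK against Sham they lie on both sides, from -0.32 to 0.25.

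Against Sham, the GSK group likewise had no called Hox gene: 0 of 10, against 12.5% of all tested genes (8.17% higher and 4.3% lower). Of the differences, 6 of 10 were above 0 (48.3% of all tested genes were) and 4 below, from -0.32 to 0.25, and the lowest limma adjusted p was 0.570. The median was 0.07 for the Hox genes and -0.01 for all genes. No Hox gene had groups without overlap in this comparison (14.3% of all tested genes did) or in GSK against MI (1.78%).

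The silent genes cannot be tested by the level classes above, since these used the GSK libraries too. Genes were therefore also chosen by the 10 Sham and MI libraries alone, a choice made after their values were seen. With 0 fragments in each of these libraries there were 13 Hox rows, of which 2 (15.4%) had a fragment in GSK, against 237 of 4309 protein-coding genes so chosen (5.50%). These were Hoxa13 with 2 fragments, both in GSK replicate 2, and Hoxd3 with 1. With 3 fragments or more in a GSK library there were 0 of the 13, against 0.743% of the protein-coding genes. With under 3 fragments in each of the 10 libraries there were 20 Hox rows, with 12 fragments in Sham, 11 in MI and 15 in GSK. Of these 20, 6 (30%) had a fragment in GSK, against 15.8% of protein-coding genes so chosen. Only 1 of the 20 (5%) had 3 fragments or more in a GSK library, against 3.90%. It was Hoxd10, a limb gene, with 5 fragments in GSK replicate 1, 2 in replicate 2 and 0 in the others. Hoxd10 had 7 fragments in each of the 3 groups, spread over 4 Sham, 4 MI and 2 GSK libraries. All 16 posterior rows together had 55 fragments in Sham, 71 in MI and 50 in GSK. Hoxa9, a posterior gene known from leukaemia, had 3 fragments in Sham, 11 in MI and 0 in GSK. Hoxc5 had 3, 7 and 0. Hoxc6 had 9, 6 and 14, and Hoxd4 (both rows) 2, 4 and 9. At this depth, a change of genes with so few fragments was not detectable.

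Noncoding rows of the clusters were low or at 0 too. Of 44 such rows, 28 were listed at 0, 9 were trace and 7 were detected, with 107 fragments in Sham, 250 in MI and 117 in GSK. Most rows at 0 are miRNA genes or other short RNA entries, of 69 to 233 bases. Sequencing of polyadenylated RNA may miss these, so their zeros do not show silence. Gm11536, antisense within Hoxb3, rose in MI from 0.0813 ± 0.0534 to 0.326 ± 0.110 FPKM (SD, n = 5; log2 difference 1.25 ± 0.36 SE, limma adjusted p = 0.0145), and it was the 1 called of 7 tested. It had 5 and 23 fragments in these groups and overlaps Hoxb3 on the other strand, so the 2 cannot be told apart if strand was not used. Hotairm1, a myeloid noncoding RNA of the Hoxa cluster, had 0.168 ± 0.0921 FPKM in Sham, 0.409 ± 0.268 in MI and 0.162 ± 0.146 in GSK and was not called. Hotair, Hottip and Haglr, long noncoding RNAs of the posterior Hoxc and Hoxa clusters and of Hoxd, were listed at 0 in every library. No noncoding row was called in GSK against MI.

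Most genes bordering the clusters did not share this silence. Of 11 flanking protein-coding genes, 8 were expressed. The homeobox genes Evx1 and Evx2, next to Hoxa13 and Hoxd13, were listed at 0, and Skap1 was detected at a mean of 0.0294 FPKM. In MI against Sham, 1 of 8 tested rose and 2 fell. Skap2, an adaptor protein of immune cells, rose from 1.04 ± 0.135 to 2.11 ± 0.426 FPKM. Hibadh, an enzyme of valine breakdown, fell from 27.4 ± 1.50 to 16.9 ± 3.91, and Calcoco1 fell by 0.69 on the log2 scale (limma adjusted p of the 3 between 0.000628 and 0.00203). None passed in GSK against MI, and against Sham Skap2 was higher in GSK (1.69 ± 0.394 FPKM).

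The complex that the inhibitor targets was transcribed in every group. Of 11 PRC2 genes, all were tested, and 2 rose and 3 fell in MI. Ezh2 had 0.992 ± 0.127 FPKM in Sham, 1.42 ± 0.168 in MI and 1.30 ± 0.0817 in GSK, and it rose in MI by 0.48 ± 0.12 on the log2 scale (limma adjusted p = 0.00510). Phf19, an accessory subunit, rose from 0.325 ± 0.0567 to 0.794 ± 0.325 FPKM. Ezh1, the other catalytic subunit, fell from 6.81 ± 0.451 to 5.50 ± 0.603, and the accessory subunits Jarid2 and Phf1 fell by 0.33 and 0.45 on the log2 scale. Between GSK and MI, 0 of 11 were called, and against Sham Phf19 was higher and Phf1 lower in GSK. The Ezh2 mRNA does not show whether the enzyme was inhibited.

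On the opposing side, 0 of 10 tested trithorax and demethylase genes rose in MI and 2 fell. Kdm6b, a demethylase of H3K27, fell from 6.35 ± 0.416 to 4.03 ± 0.455 FPKM and was also lower in GSK than in Sham (4.55 ± 0.844). Kmt2a, a methyltransferase known for maintaining Hox expression, fell from 5.84 ± 0.416 to 4.43 ± 0.394 FPKM (limma adjusted p = 0.00107 and 0.00160 for the 2 falls in MI). None was called between GSK and MI.

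TALE homeodomain proteins bind DNA together with Hox proteins. Of 9 tested, 1 rose and 3 fell in MI. Meis2 fell from 3.01 ± 0.310 to 1.52 ± 0.247 FPKM (log2 difference -0.94 ± 0.14 SE, limma adjusted p = 0.000155) and was also lower in GSK than in Sham, at 2.16 ± 0.361. Meis1 fell by 0.44 on the log2 scale, and Meis3 rose by 0.58. Between GSK and MI, 0 of 9 were called. Of the 9, 8 were expressed by the rule under which 0 Hox rows were.

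Genes of retinoic acid supply and response, which act upstream of Hox genes in the embryo, moved in both directions in MI: 6 of 16 tested rose and 4 fell. Aldh1a2, which makes retinoic acid, rose from 3.60 ± 1.16 to 23.9 ± 10.2 FPKM (log2 difference 2.63 ± 0.39 SE, limma adjusted p = 0.000187). Aldh1a3, another retinaldehyde dehydrogenase, rose from 0.633 ± 0.241 to 1.95 ± 0.309. The receptor gene Rxra fell from 17.6 ± 1.69 to 11.5 ± 1.44. None passed in GSK against MI, where Aldh1a2 had 6.78 ± 4.46 FPKM in GSK. Against Sham, 2 genes were higher in GSK, Aldh1a3 among them, and Rxra and Rarb, a retinoic acid receptor, were lower. Cdx2 and Cdx4, which activate Hox genes in the embryonic trunk, were listed at 0.

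Another 40 developmental transcription factor genes that Polycomb keeps silent in most adult tissues served for comparison. Of these, 6 were listed at 0, 27 were trace and 7 were detected, and 0 were expressed. Their fragments numbered 493 in Sham, 525 in MI and 492 in GSK. Of the 4 that could be tested, 0 were called in any comparison. Six2, a homeobox gene and among the highest of them, had 0.205 ± 0.0516 FPKM in Sham, 0.373 ± 0.239 in MI and 0.405 ± 0.114 in GSK.

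Of 15 lists of cell type markers, 4 had sums that were higher in each MI library than in any Sham library. Fibroblast markers (6 of 6 in the table, none at 0) summed to 208 to 290 FPKM in Sham, 416 to 965 in MI and 292 to 940 in GSK. The 5 markers of activated fibroblasts gave 122 to 145, 232 to 583 and 156 to 451, and the 4 macrophage markers 69.5 to 92.8, 157 to 246 and 89.9 to 219. Markers of haematopoietic progenitors and neutrophils gave 22.1 to 28.7, 38.1 to 52.9 and 35.2 to 51.8. Of these 5 markers, 3 could be tested, so their sum does not stand for each of them. Markers of atrial cardiomyocytes gave 106 to 1666, 280 to 2100 and 332 to 2108. MI replicate 5 and GSK replicate 2 were the lowest of their groups in this sum. Of its 4 genes, 1 was called higher in MI against Sham and 0 lower, but their median log2 difference was -2.43. The atrial sum, with a median of 469 FPKM in Sham and 1377 in MI, thus does not stand for each of its markers. Lung epithelium markers were at 1.98 and 2.05 FPKM in MI replicates 2 and 3 and at most 0.557 in the other libraries. Among the marker genes of all lists, Myh4, of skeletal muscle, was the 1 listed at 0 throughout. Over the 15 libraries the Spearman correlation of the Hox sum was -0.63 with the cardiomyocyte sum and 0.56 with activated fibroblasts and atrial cardiomyocytes. It was 0.55 with macrophages and 0.53 with smooth muscle and pericytes and with haematopoietic progenitors and neutrophils. Further values were 0.45 with fibroblasts and with lymphocytes, 0.425 with epicardial and mesothelial markers and 0.41 with lung epithelium. These points include the group differences and are given as a description. MI replicate 3 was first of 15 in Hox, fibroblast, activated fibroblast, macrophage, lymphocyte and lung epithelium sums. MI replicate 1, second in Hox, was 9th in fibroblast markers (416 FPKM), and MI replicate 5, 14th in Hox, was 7th (430 FPKM). The part of cell composition in the Hox levels was not tested.

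The tested Hox genes varied together across libraries. Over their 45 pairs the median Spearman correlation across 15 libraries was 0.57, from -0.17 to 0.86. It was 0.69 for 17 pairs within a cluster and 0.51 for 28 pairs of different clusters. The highest were Hoxa2 with Hoxa3 (0.86) and, across clusters, Hoxa5 with Hoxb4 (0.85). The pairs share libraries, depth and the group differences, and neighbours such as Hoxa3 and Hoxa5 overlap along the chromosome. The 5 protein-coding genes outside the Hox family whose FPKM followed the Hox sum most closely were Dleu7 (Spearman 0.85), B230307C23Rik (0.83), Clec2i, Lilra6 and Zfc3h1 (0.81 each) over the same 15 libraries.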

How the data were processed

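The authors deposited FPKM values per gene with gene lengths and mm10 coordinates for 15 libraries in 3 groups of 5. Per the submitters' processing notes, the tools were featureCounts of Subread, HISAT2, R 3.5.1 and DESeq2, named without a role. Which annotation release and strand setting they used is not given in the sources used here. Each FPKM times the gene length was a whole multiple of a step of its library (100% of values within 0.01 of a whole number), which gave the fragments.

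Group means of log2(FPKM + 0.1), a scale that understates changes of low genes, were fitted with limma 3.58.1 (R 4.3.3; mean trend) over all 15 libraries, for each gene that reached 0.1 FPKM in 5 libraries or more. A gene was called where the Benjamini-Hochberg adjusted p over all 19222 genes was under 0.05. Every adjusted p printed is from this fit unless another is named. Scripts were tested on simulated data. A count test was not the main test because the unit is FPKM.

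The Hox genes, the gene lists and the marker lists were chosen with earlier results of these data known. All Hox rows are counted. Each tested one is named but for items that are not reported here, and every library is given for genes called. Hoxd8, Hoxb4 and Hoxa5, also given by library, were chosen for their levels. Of the other lists, up to 4 called genes of lowest p are named per comparison, or, where none was called, the 2 of highest mean. The genes most like the Hox sum are the 5 protein-coding ones of highest Spearman correlation. Replicate numbers do not pair the samples: of 15 pairs with the same number in different groups, 2 had deviations correlating above 0.1 (-0.41 to 0.49). The protocols speak of separate mice, so a library was taken as a replicate.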

Additional observations from a re-analysis of the deposited data

Results flagged for a closer look

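Hoxa7 in Sham replicate 5 stood at 0.355 FPKM, and the nearest other Sham library was at 0.111. The gap was 0.753 of the range of the group, above the 0.71 at which Dixon's test for 5 values calls a value far from the rest. It was the 1 such value among 33 sets of 5 looked at, and chance gives about 1 in 20.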

How the results depend on the processing

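In GSK against MI and in GSK against Sham, 0 Hox genes were called under all 28 alternatives. In MI against Sham the count of 1 was the same in 14 of 28 alternatives. It was 0 with a pseudocount of 0.01, with no filter beyond a value above 0, without the 2 mixed Sham libraries, without MI replicate 4 and GSK replicates 3 and 4, and with MI replicates 1 and 3 left out, and 2 by voom with TMM scaling. Leaving out 1 library gave 0 to 5 (5 without MI replicate 5, 2 without Sham replicate 5). With the replicate block the count was 1, with Hoxa3 at an adjusted p of 0.0346; the numbers do not pair the samples.

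Directions turned in values that were not called. Without the mixed Sham libraries, MI against Sham gave -0.0071 for Hoxa4 and -0.0027 for Hoxa7 (log2). For Hoxd9, leaving out 1 library gave -0.17 (without Sham replicate 3) to 0.30 (without Sham replicate 1), with -0.063 without MI replicate 1, and it gave -0.23 without MI replicates 1 and 3. GSK against MI gave 0.077 for Hoxa4 and 0.23 for Hoxd9 without MI replicates 1 and 3. For Hoxd9 leaving out 1 library gave -0.27 (without MI replicate 2) to 0.060 (without MI replicate 1), and it was 0.00084 without MI replicate 4 and GSK replicates 3 and 4. The cause was not tested.

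Requiring 1 fragment in place of 3 gave 20 detected rows, and requiring 10 gave 8; leaving out 1 library gave 13 each time. A filter at 1 FPKM left no Hox gene to test and gave no value. Over all genes, MI against Sham had 3381 called higher and 3147 lower, and 3976 and 2240 when totals were equalised with mitochondrial genes left out. GSK against MI had 0 called, 139 higher and 107 lower without MI replicate 1, 7 and 3 without GSK replicate 1, 17 and 13 without GSK replicate 5, and 93 and 81 without MI replicates 1 and 3.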
